A study of Mus musculus with 28 samples.

Results

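Wide stretches of chromatin that were open in every library were described across the reprogramming of mouse embryonic fibroblasts (MEFs). The assay was ATAC-seq: a transposase inserts sequencing adapters into DNA that is not packed away. Overlapping peaks of all 28 libraries on chromosomes 1 to 19 and X were merged (1 bp or more), which gave 172177 regions. A region counted as called in a library where 1 of its peaks overlapped it, and 7740 regions were called in all libraries. Of these, 1015 had a merged width of 1000 bp or more and are the wide regions described here, and the other 6725 are the narrower regions they are set beside. They were chosen by merged peak width and by being called in all libraries, so neither is a result, and every library had a part in the choice. A further 343 regions were as wide but were missed by at least 1 library.

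The 28 libraries form 7 groups of 4. Per the series' design, all cells derived from Tet2-/- fibroblasts that carry the OKSM reprogramming factors and rtTA, switched on by doxycycline. The fibroblasts are labelled as strain background V6.5 129XBI/6, taken at embryonic day 12.5. MEFs, the day 0 group, are labelled untreated and carry no genotype label of their own, and no sorting is named for them. The reprogramming cells had been infected with pMXs retrovirus carrying wild-type Tet2 (Tet2-WT), Tet2-E, which the series calls a stalling mutant, or no insert (empty vector). They were grown on Mito-C treated feeder fibroblasts with LIF, PD0325901, CHIR99021 and doxycycline, and sorted by SSEA1-RFP at day 5 or day 10. Virus, medium, feeder cells and sorting therefore all differ between the later days and MEFs, and their parts in any difference from MEFs cannot be told apart. Nothing in the labels says that the 4 libraries of a group were separate cultures or animals, and the p-values below rest on the spread between libraries, which may be technical. These are bulk samples, in which fewer cells with an open site and a less open site in each cell cannot be told apart.

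TET enzymes oxidise 5-methylcytosine in steps, and Tet2 has been studied in reprogramming because DNA demethylation accompanies the return to pluripotency. Chromatin that is open in most cell types lies largely at promoters of broadly used genes and at sites of architectural proteins such as CTCF. A wide open region usually holds several nucleosome-free stretches with nucleosomes between them, and a peak caller can report it as 1 long peak or as several short ones. No gene annotation of mm9, the build of the files, was used here, so regions are named by their mm9 coordinates, counted from 1, and fibroblast or pluripotency genes could not be checked.

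The peak lists held 27918 to 72332 peaks, the most in MEF replicate 1. The background pileup that each list implies, used as its relative depth, was 0.394 to 0.66 in MEFs, 0.746 to 1.037 at day 5 and 0.361 to 0.768 at day 10. MEF replicate 1 stood apart from the other MEF libraries, with longer peaks in the wide regions (median 585 bp, against 378 to 424 bp in the other MEF libraries). It alone brought 195 of the 1015 regions up to 1000 bp, and no other library did so for more than 60. Merged anew without it, with peaks that only touch not joined, 196 were under 1000 bp. In 1 more the remaining stretch was not called in each of the other 27 libraries, and 818 regions met the rule. Counts that rest on MEFs are also given without it below, and MEF values are given by library or as a range.

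Most wide regions were not wide in any single library. In 780 of 1015 no library held a peak of 1000 bp or more, in 168 exactly 1 library did, and in 67 at least 2 did. The highest number of libraries with such a peak was 16. The merged widths had quartiles of 1046, 1110 and 1213 bp and reached 2196 bp, while the widest peak of any library had a median of 870 bp per region. A typical library covered 569.5 bp of a wide region and 376.5 bp of a narrower one (medians over regions of the median over libraries), or 50.3% and 56.1% of the region. By the authors' fold of the strongest peak, ranked within its own list, wide regions lay at a median percentile of 78.7 and narrower ones at 84.8. The strongest summits of the libraries were spread over a median of 451 bp in wide regions and 203 bp in narrower ones.

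The shared part of a wide region was short. In 818 regions (80.6%) at least 1 base was covered in all 28 libraries, and in 197 (19.4%) none was, although every library called the region. The bases covered in all libraries had a median of 144 bp, and the bases covered in 14 or more libraries a median of 563 bp. Those majority bases formed 1 stretch in 482 regions, 2 stretches in 349, 3 in 123 and 4 or more in 61. Only 13 regions had 1000 bp or more covered in 14 or more libraries. Whichever 1 library was left out, 525 regions stayed at 1000 bp or more. At the limit, the regions just inside (1000 bp, chr3:97413271-97414270, chr3:122686802-122687801 and chr9:117949177-117950176) had median covered lengths of 365.5, 796 and 746 bp. Those just outside (999 bp, chr10:79242790-79243788, chr5:145725359-145726357 and chr7:100228223-100229221) had 768, 555.5 and 304.5 bp.

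The longest common stretches show what a steadily open wide region looked like. In chr16:42875019-42876504 an unbroken 738 bp of the 1486 bp were covered in all libraries. The next longest, in chr7:51560088-51561106 (1019 bp, 683 bp common to all), lay in a single peak in each of the 28 libraries. The covered length of that region was 865, 768, 767 and 813 bp in MEF replicates 1 to 4. The lowest, median and highest values were 774, 832 and 908 bp at day 5 and 708, 776 and 853 bp at day 10. The groups overlap and no library departs far from the rest. By contrast the widest region of all, chr5:109985698-109987893 (2196 bp), had no base common to all libraries, although 1579 bp were covered in 14 or more of them. Here the MEF libraries covered 1516, 1469, 1350 and 1296 bp, the day 5 libraries 1171 to 1632 bp (median 1558.5) and the day 10 libraries 609 to 1711 bp (median 1053). All 4 MEF libraries, 11 of 12 day 5 libraries and 10 of 12 day 10 libraries split it into 2 or more peaks. Its strongest peaks ranked low, at a median percentile of 28.4.

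The next widest regions also lacked a broad common stretch. The runner-up in width, chr3:51144276-51146063 (1788 bp), had no base covered in all libraries and 501 bp covered in 14 or more. The one after it, chr7:6679983-6681718 (1736 bp), shared 12 bp over all libraries and 1199 bp over 14 or more. A different layout was seen in chr12:119539355-119541058 (1704 bp), with 457 bp common to all libraries and 2 or more peaks in every one of them. The 10 regions with the highest fold percentile (97.4 to 99.0) were 1007 to 1185 bp wide.

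Coverage around the strongest summit, placed at the median of its positions over all 28 libraries, fell off slowly in the wide regions. As 24 of these are later libraries, the place is set mainly by them. At that place 93.8% of the wide regions were covered in MEFs, 97.6% at day 5 and 94.8% at day 10. Of the wide regions, 36.7% were covered 400 bp after the summit in MEF libraries on average (30.0% to 49.4%), 27.2% at day 5 (22.2% to 31.3%) and 20.8% at day 10 (14.3% to 27.98%). At the same distance the narrower regions had 11.1% in MEF libraries, 7.83% at day 5 and 5.51% at day 10. The order of the stages was the same in both kinds of region, and the narrower regions could not extend as far by the rule that chose them.

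**Figure D1:**
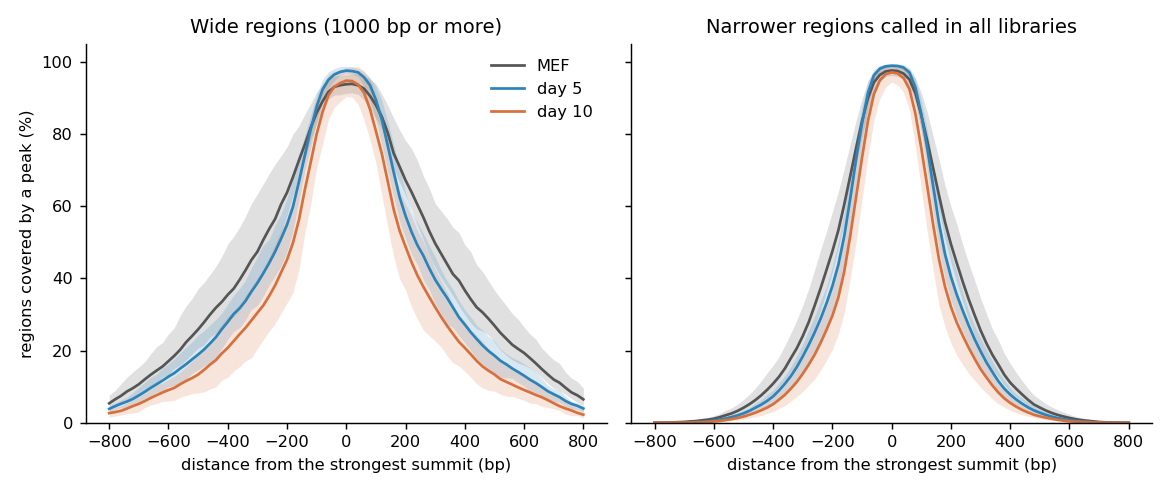
Percent of regions covered by a peak (y) against the distance in bp from the strongest summit (x), for the wide regions (left) and the narrower ones (right). The summit is placed at the median of its positions over all 28 libraries. Lines are means over the 4 MEF, 12 day 5 and 12 day 10 libraries and bands run from the lowest to the highest library. At 400 bp the wide regions stand at 36.7% in MEFs, 27.2% at day 5 and 20.8% at day 10.

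Wide regions were broken into more peaks at both later days than in MEFs. In MEF libraries 33.4% to 45.6% of the wide regions held 2 or more peaks, at day 5 54.5% to 70.0% and at day 10 49.9% to 59.6%. No day 5 or day 10 library overlapped the MEF libraries. The means were 60.2 ± 4.66% at day 5 (SD, n = 12) and 41.0 ± 5.54% in MEFs (SD, n = 4). At day 10 the mean was 54.9 ± 2.79% (SD, n = 12). Narrower regions differed in the same direction, with 14.3% to 27.3% split at day 5 and 7.38% to 11.2% in MEFs. The median covered length of a wide region was 535 to 657 bp at day 5, against 855, 634, 689 and 659 bp in MEF replicates 1 to 4, and 396 to 623 bp at day 10, below every MEF library.

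Split shares were also taken in shortened lists, over the wide regions that still held a peak in the library. With each list reduced to its 27809 strongest peaks, 24.7% to 38.1% of these were split at day 5, against 7.69% to 16.0% in MEFs. In those lists 31.2% to 53.0% were split at day 10. This cut was uneven. MEF lists had held 41345 to 72140 peaks on these chromosomes, while Tet2-E day 10 replicate 4, the library with 53.0%, had held 27809 and lost none. The part of the uneven cut in these shares was not tested. Keeping peaks with −log10 q of 5 or more gave 41.2% to 55.4% at day 5, 33.8% to 44.0% at day 10 and 20.99% to 33.6% in MEFs, so that the groups came closest between day 10 and MEFs and still did not overlap. The part of depth, given above by stage, in the split was not tested. When each region was tested alone (2-sided exact tests on the number of libraries that split it, added after the data were seen), no region passed adjustment (0% of 7740) in any of the 3 comparisons of stages. At an unadjusted p under 0.05, 88 wide regions (8.67%) differed between day 5 and MEFs, against 204 of all 7740 (2.64%). Of the 88, 80 were split more often at day 5, as were 172 of the 204. Between day 10 and MEFs 90 differed (8.87%), against 227 of all 7740 (2.93%). Of the 90, 77 were split more often at day 10, as were 183 of the 227. Narrower regions were split in a median of 3 libraries and wide ones in 16. A region split in few libraries can seldom reach that p, so the shares are not like for like. Without MEF replicate 1 these counts were 91 wide regions at day 5 (84 more often) and 100 at day 10 (85 more often), with no count made over all 7740. With 4 MEF libraries the smallest p of this test passes adjustment only if many regions reach it together. The lack of calls therefore does not show that splitting was alike. On simulated data the test recovered 0% of 200 and 73.2% of 1000 changed regions for day 5 against MEFs, and 43% and 69.9% for day 10 against MEFs. The changed regions went from almost never to almost always split. Group sizes and effect were the same for both days, so 0% and 43% differ only by the random draw.

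Where a region was split, the distance between neighbouring peaks was measured. Over all libraries the gap between neighbouring peaks had a median of 122 bp (quartiles 76 and 223 bp) and their summits were 410 bp apart (quartiles 301 and 551 bp). Library medians of the summit distance were 476.5 to 539 bp in MEFs, 377.5 to 444 bp at day 5 and 338 to 418.5 bp at day 10. Every later library had a shorter distance than every MEF library. At the far end of the range, 205 regions held 4 or more peaks in at least 1 library and 19 were split in all 28 libraries. Only 6 were split in none.

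**Figure D2:**
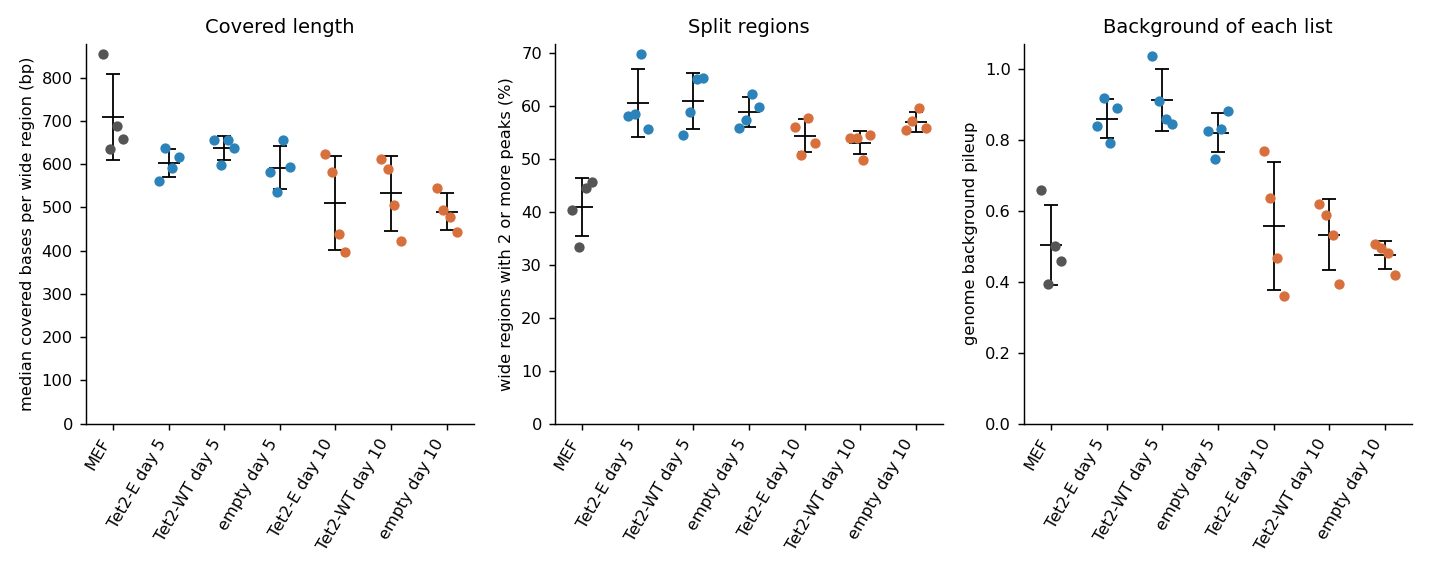
Median covered bases per wide region in bp (left), percent of wide regions holding 2 or more peaks (middle) and background pileup of the list (right) in each library. Points are libraries, bars the group mean and SD (n = 4). The split share is 33.4% to 45.6% in MEFs and 49.9% to 70.0% in the later groups.

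The next question was which wide regions covered more or fewer bases at each stage. The covered length is the number of bases of a region under a library's peaks. It was put on the log2 scale, centred on each library's median over all 7740 regions, and tested with limma over all 7740, with Benjamini-Hochberg adjustment and a threshold of 0.05. Longer and shorter below mean relative to that median. Merged width favours regions whose peaks differ between libraries, so the calls of the main fit are set beside those over all 7740 regions. Calls under other settings are counted for the wide regions alone, and are not read as particular to them. The choice also had a direction. The outer ends of wide regions set by 1 library alone numbered 403, 116, 152 and 154 for MEF replicates 1 to 4. For a day 5 library the mean was 65.8 ± 18.1 and for a day 10 library 30.6 ± 14.2 (SD, n = 12 each). Regions long in MEFs were thus favoured, and a surplus of shorter calls at the later days is not read as a result. Of the 1015 regions, 539 met the rule in the 24 later libraries alone, a choice that favours the opposite direction and was added after the data were seen. Of these 539, 83 (15.4%) were longer and 6 (1.11%) shorter at day 5 than in MEFs, against 8.4% and 3.84% of all 7740. At day 10, 131 (24.3%) were longer and 54 (10.0%) shorter, against 15.5% and 9.08% of all 7740.

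At day 5, 175 wide regions (17.2%) passed the test against MEFs, where 12.2% of all tested regions did. Of these, 98 wide regions (9.66%) were longer than in MEFs, where 8.4% of all tested regions were, and 77 (7.59%) were shorter, where 3.84% of all tested regions were. The median log2 difference was -0.04 over the wide regions and 0.02 over all regions tested. Lengthened regions were usually 1 peak in MEFs and more than 1 at day 5. Their split share was 68.5% at day 5 and 33.9% in MEFs. Shortened regions had like split shares, 47.2% at day 5 and 48.1% in MEFs, with a median of 455.5 bp covered at day 5 and 823 bp in MEFs. In bases without centring, every day 5 library lay above every MEF library in 18 of the 1015 wide regions (1.77%), against 1.98% of all tested regions. Every day 5 library lay below in 62 (6.11%), against 3.99% of all. Without MEF replicate 1 these were 39 wide regions above (3.84%, against 3.44% of all) and 63 below (6.21%, against 4.37%). Leaving out a library can only keep or raise counts of groups that do not overlap. A base counted as gained or lost where at least 3 in 4 libraries of 1 stage covered it and fewer than that did in the other. An end lay outside the first and last base so covered in the stage with the shorter length. Regions with 100 bp or more at an end were counted there even if they also differed inside, and a single peak leaves little room inside. By this count most differences of 100 bp or more were at the ends. Of the 98 longer regions 66 gained 100 bp or more at 1 end, 1 at both ends and 6 only inside, while 25 differed by under 100 bp everywhere. Of the 77 shorter regions 41 lost as much at 1 end and 25 at both ends, while 9 did so only inside. Without centring the direction of these calls shifted, with 42 longer and 114 shorter. The uncentred log2 difference between day 5 and MEFs had a median of -0.15 over all tested regions. With the depth of each list as a term 109 wide regions were called, and 9 of the 20 named by the size of their difference lost the call. Depth did not overlap between MEFs and day 5, so this term cannot cleanly tell depth from stage. Without MEF replicate 1, 87 of the 1015 were longer and 50 shorter, and of the 818 regions that met the rule without it 78 were longer and 37 shorter.

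The region lengthened most at day 5 was chr17:13236726-13237754 (1029 bp). It was covered over 368, 512.5 and 791 bp (lowest, median and highest of the day 5 libraries), against 113, 151, 192 and 202 bp in MEF replicates 1 to 4. The groups did not overlap. All 12 day 5 libraries split it and no MEF library did (log2 difference 1.86, SE 0.22, adjusted p = 7.7e-07 by limma). Its day 10 values ran from 160 to 575 bp with a median of 402.5 bp, overlapping MEFs in 1 library (log2 difference 1.62, SE 0.22, limma adjusted p = 6.2e-06).

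Shortening was largest at chr8:107778001-107779254 (1254 bp). Its covered length was 178, 349 and 427 bp at day 5 (lowest, median, highest), against 1189, 1080, 1008 and 1066 bp in the MEF libraries. At day 10 it was 159, 205.5 and 408 bp. The highest later value, 427 bp, lay far below the lowest MEF value, 1008 bp. The log2 difference from MEFs was -1.62 at day 5 (SE 0.21, limma adjusted p = 2.6e-06) and -1.82 at day 10 (SE 0.21, limma adjusted p = 4.0e-07). A second such region, chr9:54650282-54651456 (1175 bp), covered 166 to 441 bp at day 5 (median 277.5), against 1175, 729, 978 and 841 bp in MEFs (log2 difference -1.56, SE 0.19, limma adjusted p = 7.4e-07). The lengths common to all libraries in these regions were 100 bp and 19 bp.

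At day 10, 337 wide regions (33.2%) passed the test against MEFs, where 24.6% of all tested regions did. Of these, 153 wide regions (15.1%) were longer than in MEFs, close to the 15.5% of all tested regions, and 184 (18.1%) were shorter, where 9.08% of all tested regions were. Day 5 and day 10 were set against the same 4 MEF libraries, so the comparisons are not independent. The median log2 difference was -0.05 over the wide regions and 0.04 over all. In bases without centring, every day 10 library lay below every MEF library in 179 of the 1015 wide regions (17.6%), against 11.5% of all tested regions. Every day 10 library lay above in 4 (0.394%), against 0.556% of all. Without MEF replicate 1 these were 181 below (17.8%, against 12.1% of all) and 15 above (1.48%, against 1.14%), counts that could only stay or rise. Shortened regions had a median of 364.5 bp covered at day 10 and 799.25 bp in MEFs. Counted as at day 5, they lost 100 bp or more at 1 end in 103 cases, at both ends in 69 and only inside in 7. The longer regions covered 662.5 bp at day 10 and 543.5 bp in MEFs, and 91 of them differed by under 100 bp everywhere. The uncentred log2 difference between day 10 and MEFs had a median of -0.36 over all tested regions, and without centring 32 were longer and 506 shorter. In lists cut to an equal number of peaks, 110 of the 738 wide regions that could be tested were longer and 95 shorter. Without MEF replicate 1, 131 of the 1015 were longer and 122 shorter. Of the 818 regions that met the rule without it, 117 were longer and 102 shorter.

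**Figure D3:**
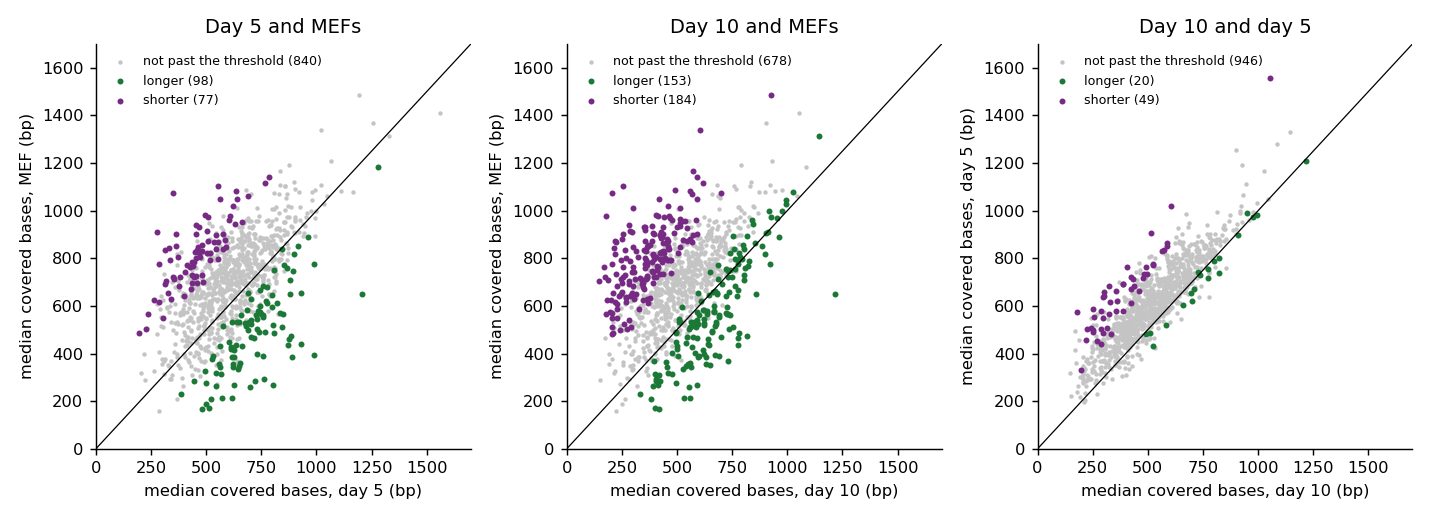
Median covered bases per wide region at day 5 against MEFs (left), at day 10 against MEFs (middle) and at day 10 against day 5 (right), both axes in bp, with the line of equal values. Coloured points passed the limma test on centred values (98 longer and 77 shorter, 153 and 184, 20 and 49), and points below the line cover more bases in the group on the x axis.

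The smallest adjusted p of a wide region was that of chr8:74093343-74094695 (1353 bp). Its covered length was 694, 619, 630 and 667 bp in MEFs, 1067 to 1306 bp at day 5 (median 1207.5) and 1071 to 1311 bp at day 10 (median 1216.5). Every later library covered over 1000 bp, and the groups lie far apart. Each MEF library reported 1 peak, while 7 of 12 day 5 libraries and 8 of 12 day 10 libraries reported 2 or more. The log2 difference was 1.04 at day 5 (SE 0.09, limma adjusted p = 2.1e-09) and 1.28 at day 10 (SE 0.09, limma adjusted p = 5.7e-11). Most of the MEF peak, 572 bp, was covered in all libraries, and the added bases lay beside it. A peak of 1000 bp or more was present in 11 libraries.

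Another region, chr18:38760815-38761895 (1081 bp), was longer at both days by nearly the same amount. Covered bases were 545, 615.5 and 842 bp at day 5 (lowest, median, highest) and 407, 558.5 and 661 bp at day 10. The MEF libraries had 479, 232, 192 and 179 bp, the highest in replicate 1, which overlaps the day 10 values and not the day 5 values. The log2 difference was 1.50 at day 5 (SE 0.14, limma adjusted p = 6.4e-09) and 1.52 at day 10 (SE 0.14, limma adjusted p = 4.3e-09). In chr16:42781340-42782798 (1459 bp) the day 5 libraries covered 641 to 1162 bp (median 929), against 604, 353, 528 and 122 bp in MEFs (log2 difference 1.53, SE 0.24, limma adjusted p = 3.8e-05). With the depth of each list as a term this call was lost (log2 difference 0.71, limma adjusted p = 0.169).

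Between day 10 and day 5, 69 wide regions (6.8%) passed the test, where 3.98% of all tested regions did. At day 10, 20 (1.97%) were longer than at day 5, where 1.69% of all tested regions were, and 49 (4.83%) were shorter, where 2.29% of all were. None of these calls was left when the depth of each list was a term in the fit. Depth went largely with stage, being mostly higher at day 5 than at day 10, so this fit cannot cleanly tell depth from stage. Without centring 0 were longer and 256 shorter, with a median uncentred log2 difference of -0.21 over all tested regions. The count also depended on single libraries, running from 42 to 89 when 1 library was left out. In bases without centring, every day 10 library lay below every day 5 library in 4 of the 1015 wide regions (0.394%), against 0.168% of all tested regions, and above in none. Groups of 12 libraries each separate less easily than 12 from 4 MEF libraries, so this count is not like those against MEFs. The most shortened was chr13:15554649-15555800 (1152 bp), with 77, 179.5 and 524 bp at day 10 (lowest, median, highest), against 299, 576 and 810 bp at day 5. The groups overlap (log2 difference -1.21, SE 0.23, limma adjusted p = 0.0034). In chr8:106864225-106865549 (1325 bp) they did not. It covered 96, 255.5 and 419 bp at day 10, against 446, 553 and 704 bp at day 5 (log2 difference -1.02, SE 0.16, limma adjusted p = 0.0012). The MEF libraries covered 1283, 869, 1107 and 1100 bp of it, so the length decreased at both steps.

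In some wide regions the strongest summit lay in another place at the later days. A summit counted as moved where the positions of the 2 groups did not overlap and lay 100 bp or more apart at their nearest, a description added after the data were seen. At day 5 this held for 18 wide regions (1.77%), against 0.401% of all 7740 regions, and at day 10 for 16 (1.58%), against 0.31%. A wide region leaves more room for such a shift. Between day 10 and day 5 it held for none (0% of all). With 12 libraries on each side the rule is harder to meet than against 4 MEF libraries, so these counts are not like for like. Both days shared the MEF libraries, 12 regions met the rule at both days and 22 at either. Without MEF replicate 1 it held for 22 wide regions at day 5 (2.17%, against 0.517% of all) and 20 at day 10 (1.97%, against 0.401%). Leaving out a library can only keep or raise such counts, so these are no check on them.

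One such region was chr11:31268856-31270267 (1412 bp). Counting from its first base, the strongest summits lay at 601 to 694 bp in MEFs, at 1241 to 1348 bp at day 5 and at 1229 to 1341 bp at day 10. The later libraries thus had their strongest site at least 535 bp away from that of any MEF library, inside a region that all of them called. In chr16:13818582-13819694 (1113 bp) the later summits were tightly placed, at 670 to 787 bp in MEFs, 202 to 237 bp at day 5 and 167 to 242 bp at day 10. In chr1:9619916-9621000 (1085 bp) they lay at 881 to 982 bp in MEFs, 127 to 348 bp at day 5 and 165 to 382 bp at day 10. This last region was also longer at day 5 (log2 difference 1.57, SE 0.18, limma adjusted p = 3.8e-07), with 623 to 896 bp covered at day 5 (median 721.5), against 198, 357, 412 and 210 bp in MEFs. Moves went in both directions along the chromosome. In chr19:32378597-32379761 (1165 bp) and chr3:51364472-51365707 (1236 bp) the nearest summits of the groups were 528 and 526 bp apart at day 5 and 541 and 529 bp apart at day 10.

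**Figure D4:**
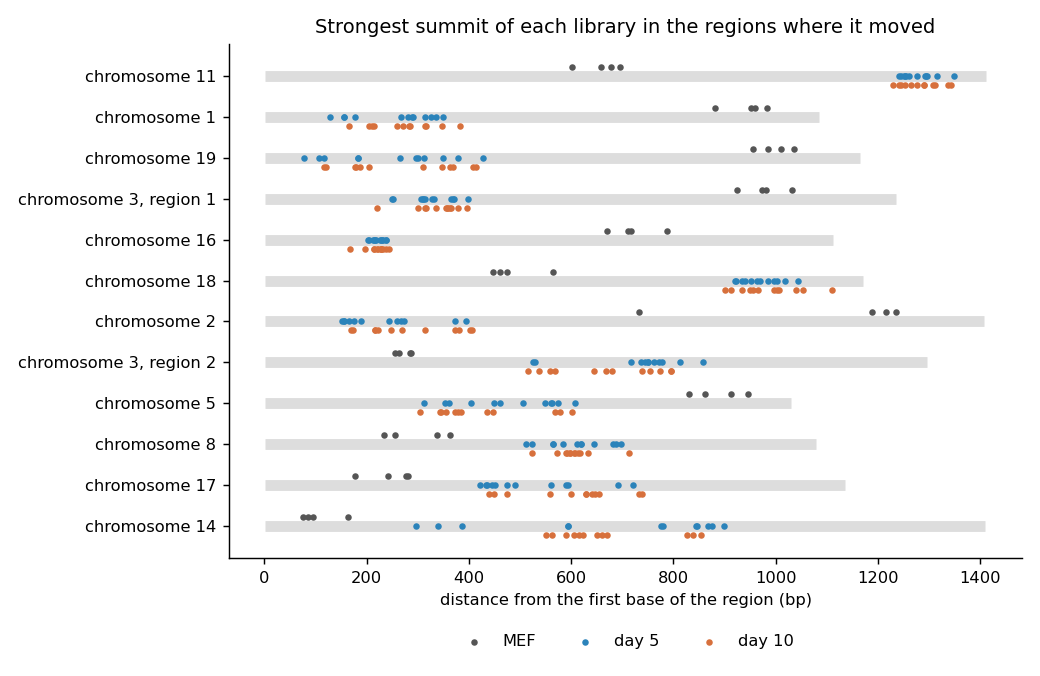
Position of the strongest summit in each of the 28 libraries for the 12 wide regions that met the rule for a moved summit at both days, in bp from the first base of the region (grey bar: the merged region). Points are libraries, coloured by stage, and in each region the MEF positions are separate from those of both later days.

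No wide region passed the limma test between vectors, averaged over both days. The count was 0 (0% of all 7740 regions) for Tet2-E against Tet2-WT, for Tet2-E against the empty vector, and for Tet2-WT against the same vector. At an unadjusted p under 0.05, 67 (6.6%), 76 (7.49%) and 66 (6.5%) wide regions differed in those comparisons, against 361 (4.66%), 387 (5%) and 395 (5.1%) of all 7740 regions, and the smallest adjusted p-values were 0.419, 0.684 and 0.539. The median absolute log2 difference of a wide region was 0.10 in each of the 3 comparisons. On simulated data the Tet2-WT against empty vector test recovered 51.5% of 200 regions changed by 1.5-fold and 1% of those changed by 1.25-fold, so differences of that smaller size were rarely detectable.

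The wide regions with the smallest p-values are given for their size. In chr10:72117145-72118263 (1119 bp) Tet2-E libraries covered 466, 667, 503 and 417 bp at day 5, against 671, 713, 556 and 619 bp with Tet2-WT. At day 10 it was 411, 370, 237 and 282 bp with Tet2-E, against 576, 664, 643 and 356 bp with Tet2-WT. Both pairs of groups overlap (log2 difference -0.49, SE 0.12, limma adjusted p = 0.419). In chr19:55390220-55391230 (1011 bp) Tet2-WT libraries covered 658, 651, 586 and 467 bp at day 5, against 444, 255, 361 and 217 bp with the empty vector. These do not overlap. At day 10 it was 322, 380, 409 and 300 bp with Tet2-WT, against 324, 279, 175 and 125 bp with the empty vector, with overlap (log2 difference over both days 0.74, SE 0.18, limma adjusted p = 0.539). In chr2:130275367-130276495 (1129 bp) the log2 difference of Tet2-E from the empty vector was 0.68 (SE 0.19, limma adjusted p = 0.684).

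One wide region passed a test of whether the change between days differed between vectors, a contrast added after the data were seen. In chr4:144783926-144785140 (1215 bp) Tet2-WT libraries covered 166, 193, 174 and 136 bp at day 10, against 651, 466, 552 and 363 bp at day 5. With the empty vector it was 419, 240, 220 and 261 bp at day 10, against 180, 148, 179 and 244 bp at day 5. All Tet2-WT libraries covered less at day 10 than any did at day 5, while the empty vector libraries overlapped and were mostly higher at day 10. The log2 change between days was lower by 2.18 with Tet2-WT than with the empty vector (interaction -2.18, SE 0.39, limma adjusted p = 0.0154). With Tet2-E the values were 200, 212, 207 and 180 bp at day 10, against 188, 218, 367 and 445 bp at day 5. It was 1 of 1015 wide regions (0.0985%), against 0.0129% of all tested regions in that direction and 0.0258% in either. The call was lost (0 wide regions) without centring, in the stricter and the equal-sized lists, and without any 1 replicate number.

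Wide regions were spread over all 20 chromosomes, with chromosome 8 standing out. There 101 of 515 regions called in all libraries were wide (19.6%), against 13.1% over all chromosomes. Chromosomes 1 and 16 followed with 16.2% each, and chromosome 5 (39 of 487, 8.01%) and X (17 of 189, 8.99%) had the lowest shares. Summit pileup, the number of fragments at the strongest base, was also higher on chromosome 8. Over the narrower regions, its median was 1.16 to 1.20 times that of all chromosomes in MEF libraries, 1.00 to 1.13 times at day 5 and 1.11 to 1.20 times at day 10. The part of this pileup in the wide regions of chromosome 8 was not tested.

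**Figure D5:**
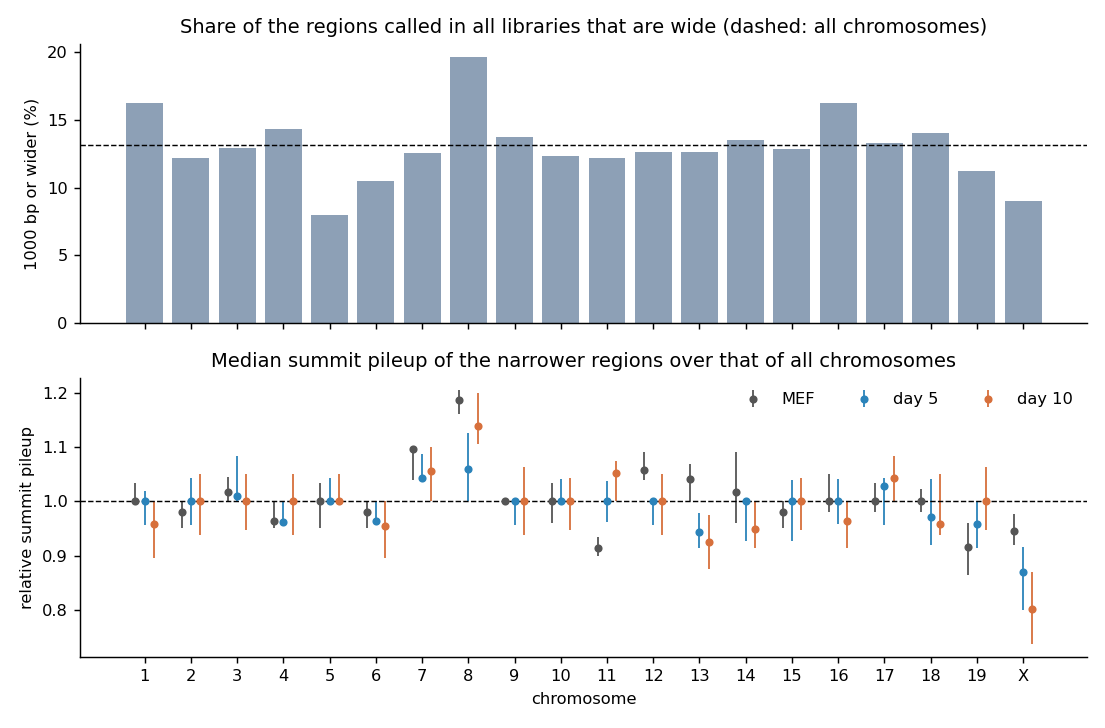
Percent of the regions called in all libraries that are wide, by chromosome (top, bars; dashed line: all chromosomes, 13.1%), and median summit pileup of the narrower regions relative to all chromosomes (bottom; points are medians over the 4 MEF, 12 day 5 and 12 day 10 libraries, lines run from the lowest to the highest library). Chromosome 8 has the highest share, 19.6%, and the highest relative pileup in MEFs.

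Chromosome 8 also held an uneven part of the calls. Of its 101 wide regions 19 (18.8%) were shorter at day 5 than in MEFs, against 58 of 914 (6.35%) elsewhere, and 5 (4.95%) were longer, against 93 (10.2%). At day 10, 24 (23.8%) were shorter than in MEFs, against 160 (17.5%) elsewhere, and 14 (13.9%) were longer, against 139 (15.2%). Set against day 5, 11 (10.9%) were longer at day 10, against 9 (0.985%) elsewhere. Shorter calls at day 5 were also more frequent over all regions of chromosome 8, 46 of 515 (8.93%), against 251 of 7225 (3.47%) elsewhere. Of the same 515 at day 10, 76 (14.8%) were longer than in MEFs and 55 (10.7%) shorter, against 15.6% and 8.97% elsewhere. The stage median of relative pileup over the narrower regions of this chromosome was lowest at day 5, and its part in the calls was not tested.

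Neighbouring wide regions were mostly far apart. The median distance to the next was 1191.52 kb, 93 neighbouring pairs lay within 100 kb and 10 within 10 kb. The closest pair was chr11:87256352-87257368 and chr11:87261768-87263249, with 4399 bp between them. At 2 places 4 wide regions followed each other at gaps under 15 kb. The closest pair began one of them, with chr11:87275430-87276548 and chr11:87284515-87285879 after it, over 29.5 kb in all. The other, over 30.1 kb, was on chromosome 1, where chr1:72272456-72273920, chr1:72282948-72284017, chr1:72290335-72291624 and chr1:72301203-72302590 followed each other at gaps of 9027, 6317 and 9578 bp.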

How the data were processed

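The authors deposited ATAC-seq peak lists called on each of the 28 libraries alone. The submitters' processing notes name Bowtie2, SAMtools, bedtools, MACS2 and the build mm9. Their versions, parameters, filters on reads and handling of cut sites were not given in the sources used. The authors' fold of a peak, a ratio over local background, its score and its −log10 p and −log10 q belong to 1 list, and were used only within that list. No list held a peak with a deposited −log10 q under 2.

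Summit pileups were worked out from the fold and −log10 p and came out whole for 100% of peaks (tolerance 0.0002 in −log10 p), and the commonest background of a list served as its relative depth. Read totals were not used. Covered lengths were compared with limma 3.58.1 (R 4.3.3) over all 7740 regions, with 7 group means and a mean trend. Other steps used Python 3.11.15, pandas 2.3.3 and SciPy 1.17.1. For day 5 against MEFs the limma fit recovered 37% of 200 simulated 1.5-fold changes. Members, lists and tests were chosen with earlier results of these data known. Regions were named by rule: the 10 widest, the 10 strongest by percentile, the 10 with the longest common stretch, those nearest the limit, the 10 with the largest difference in each direction and the 2 with the smallest p per vector comparison. Regions named for moved summits, the interaction or spacing were chosen after their values were seen. Gene starts were not analysed here.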

Additional observations from a re-analysis of the deposited data

Results flagged for a closer look

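In groups of 4 libraries, 63 sets of values were checked for a library far from the other 3, and chance alone marks about 1 in 20 such sets. MEF replicate 1 held 160 wide regions with a peak of 1000 bp or more, against 28 to 33 in the other MEF libraries. Without it, 195 wide regions would have been under 1000 bp, or 196 when merged anew. Among the empty vector libraries of day 10, replicate 1 held 7 such peaks and the others 1 to 2. Tet2-WT day 10 replicate 3 had the lowest share of split wide regions in its group, 49.9%, against 54.1% to 54.5% in the others.

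The change in covered length of chr4:144783926-144785140 between days differed between Tet2-WT and the empty vector by -2.18 on the log2 scale (limma interaction, adjusted p = 0.0154).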

How the results depend on the processing

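The number of wide regions, 1015 here, was 533 with an equal number of peaks per list, 69 where a library's peaks had to cover 50% of the region, 22 at 1500 bp or more and 3627 at 750 bp or more. With equal lists 738 of the 1015 wide regions could be tested, and 843 with −log10 q of 5 or more. The counts of calls in those lists are therefore out of fewer regions. For day 5 against MEFs, 175 calls became 107 with equal lists and 109 with the depth term, and 99 to 130 without 1 replicate number. For day 10 against MEFs, 337 became 538 without centring and 205 with equal lists, and 242 to 255 without 1 replicate number. For day 10 against day 5, 69 became 256 without centring, all shorter, 44 in lists with −log10 q of 5 or more, 20 with equal lists, 0 with the depth term, 42 without the mean trend and 13 to 45 without 1 replicate number. Leaving out 1 library in that comparison gave 42 to 89. It was moved by over 1.5 times without empty day 5 replicate 3 (45) or 4 (43), Tet2-WT day 5 replicate 1 (44) or 4 (45), Tet2-E day 5 replicate 2 (44) or 4 (44), empty day 10 replicate 2 (43) or Tet2-E day 10 replicate 3 (42). The causes were not tested, and the depth term cannot cleanly tell depth from stage. The balance of the calls turned in some settings: for day 5 against MEFs 98 longer and 77 shorter became 42 and 114 without centring, and for day 10 against MEFs 153 longer and 184 shorter became 110 and 95 with equal lists and 131 and 122 without MEF replicate 1. For day 10 against day 5 the median log2 difference over the wide regions, -0.01, was 0.02 with equal lists and 0.02 with the depth term. No named region's difference changed sign in the settings where it could be tested. In each comparison with MEFs only 4 of 20 named regions could be tested with −log10 q of 5 or more, and 2 with equal lists. Of the values of single named regions, 2234 stayed on their side of the threshold and 251 lost it. Those that stayed include vector regions that never passed, and most losses were for day 10 against day 5 (115 without 1 library, 46 without 1 replicate number).

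The replicate numbers did not pair the libraries (1 of 84 same-number pairs correlated above 0.1, and 11 of 28 libraries correlated best with their own number). With the replicate number as a block, the calls were 184, 339 and 75 for the 3 comparisons of stages and 0 for each comparison of vectors. The share of wide regions at gene starts was not run. Precision is limited by the number of libraries, 4 per group, and by read depths that are known only relative to each other.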
